A study of Homo sapiens with 8 samples.

Results

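The genes described here make and recycle the building blocks of DNA and RNA. They comprise the enzymes of purine and pyrimidine synthesis, of deoxynucleotide supply and of nucleotide salvage, and the folate enzymes that donate carbon units to both. The set is a list of 37 gene symbols, of which 36 have at least 1 of the 17881 transcript clusters on the array. MTHFD1L has no cluster under its symbol and is not analysed here. Where a gene had several clusters (RRM2, TYMS, DUT, MTHFD2 and SLC19A1), the cluster with the highest mean over the 8 arrays was taken. The cluster of SAMHD1 is also annotated to TLDC2 and that of PRPS1 to PRPS1L1, so those values cover both genes.

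Expression was measured with Affymetrix exon arrays in cells labelled RS4;11, an established line of B-cell precursor acute lymphoblastic leukemia with an MLL fusion. They carried either a control shRNA vector or an shRNA vector against BTG1, an antiproliferative protein. Vehicle or prednisolone, a glucocorticoid drug of leukemia therapy, was present for 8 h. Each of the 4 groups (control shRNA with vehicle, control shRNA with prednisolone, BTG1 shRNA with vehicle, BTG1 shRNA with prednisolone) holds 2 arrays. The design asks how loss of BTG1 changes the response to prednisolone. Separate cultures are not named in the labels, nor whether a transduced line was 1 clone, and the p-values therefore reflect spread among these arrays alone, which may be technical. In bulk RNA, fewer cells of a type and less RNA per cell cannot be told apart. The number of arrays limits the precision.

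The arrays labelled BTG1 shRNA went against their cell line label. BTG1 itself, in a cluster shared with LINC01619, stood at 9.34 and 9.36 on the control vehicle arrays, and at 10.51 and 10.70 with prednisolone, against 7.15 and 7.42, then 8.14 and 7.80, on the arrays labelled BTG1 shRNA. The difference was -2.06 on the log2 scale, which is used for all values here (SE 0.20, limma adjusted p = 0.000388), under vehicle and -2.64 under prednisolone. NR3C1, the glucocorticoid receptor, was also lower on them, at 7.12 to 7.77 against 9.72 to 10.90. CD3D, a subunit of the T-cell receptor complex, read 10.97 to 11.49 on these 4 arrays and 3.24 to 3.42 on the control arrays. CD79A, a subunit of the B-cell receptor complex, read 4.83 to 4.92 against 9.89 to 10.15. Of 11 T-cell markers 10 were above the array's median on each array labelled BTG1 shRNA and 3 on each control array, with mean levels of 8.89 to 9.19 against 4.30 to 4.93. Of 10 B-lineage markers 0 were above it on the former and 8 or 9 on the latter (3.81 to 4.14 against 8.25 to 8.90). Myeloid, erythroid and platelet markers had mean levels of 3.90 to 4.78 on all 8 arrays, and stromal and epithelial markers of 5.90 to 6.65. For this reason the group is named by its label only, and in every comparison with the control arrays the shRNA and this lineage difference cannot be told apart. Values spread least on the first control vehicle array (interquartile range 2.95 against 3.39 to 3.80 elsewhere), and 30 of the 36 genes read lower on it than on the second control vehicle array.

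Purines are built stepwise on phosphoribosyl pyrophosphate until inosine monophosphate is formed, which is then turned into adenine or guanine nucleotides. Pyrimidines are built as a free ring and joined to the same sugar phosphate. Ribonucleotide reductase and thymidylate synthase then supply the deoxynucleotides for replication, while salvage kinases and phosphoribosyltransferases reuse bases and nucleosides. Lymphoid leukemia is treated with drugs aimed at this network: methotrexate enters through the carrier SLC19A1 and is retained by FPGS, mercaptopurine is activated by HPRT1, and cytarabine is activated by DCK and its active form is degraded by SAMHD1. Deficiency of ADA or PNP impairs lymphocytes, T cells above all.

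**Figure D1:**
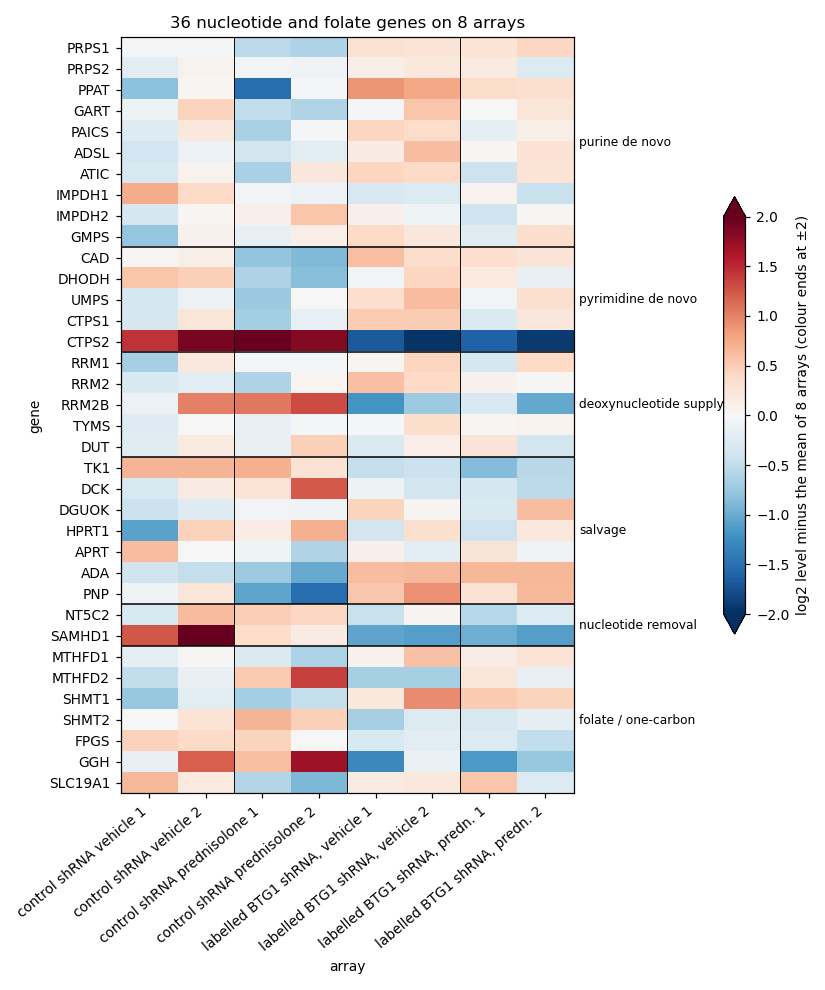
Log2 level of each of the 36 genes (rows, ordered by role) on each of the 8 arrays (columns), minus that gene's mean over the 8 arrays; red is higher and blue lower, and colours end at 2 on either side. CTPS2 is high on the 4 control arrays and low on the 4 arrays labelled BTG1 shRNA, SAMHD1 is highest on the 2 control vehicle arrays, and PNP is lowest on the 2 control prednisolone arrays.

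Prednisolone in the control cells gave differences above 2-fold for 5 genes (DHODH, PNP, SAMHD1, SLC19A1 and MTHFD2), but 0 of 36 passed the adjusted test with limma. DHODH, the mitochondrial enzyme of pyrimidine synthesis, and PNP, which cleaves purine nucleosides to free bases, lay just outside the threshold and were lower. Over all clusters 1.52% passed in this comparison. At an unadjusted p below 0.05 there were 2 higher and 9 lower genes, against 7.56% and 6.57% of all clusters. The median difference was -0.09 for the 36 genes and -0.16 for all clusters. With each array centred on its median these became 0.04 and -0.04, and with quantile normalization -0.21 and -0.05. Which median was lower depended on the scaling, and the list as a whole is given no direction.

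DHODH stood at 6.58 and 6.51 on the control vehicle arrays, and at 5.42 and 5.18 on the control prednisolone arrays. The groups did not overlap, and the difference was -1.24 (SE 0.23, limma adjusted p = 0.0504, 95% interval -1.78 to -0.71). With 2 arrays a group, 4717 of all 17881 clusters were likewise lower without overlap in this comparison. CAD, the enzyme of the first 3 steps of pyrimidine synthesis, read 8.77 and 8.86 with vehicle and 7.96 and 7.86 with prednisolone. It was lower on both prednisolone arrays, at -0.91 (SE 0.18, adjusted p = 0.060). PNP read 10.08 and 10.41 with vehicle and 9.11 and 8.64 with prednisolone, without overlap, a difference of -1.37 (SE 0.25, adjusted p = 0.0526). SAMHD1, a phosphohydrolase that breaks down deoxynucleotides, read 5.27 and 6.49 with vehicle and 4.40 and 4.19 with prednisolone, where it lay below the median of all clusters on both arrays. Its difference was -1.59 (SE 0.36, adjusted p = 0.0953), from vehicle arrays that were themselves apart (5.88 ± 0.86, SD, n = 2).

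These near misses crossed the threshold under some settings. With quantile normalization 2 genes were called lower, DHODH (limma adjusted p = 0.0469) and PNP (0.042), and these 2 were also called when clusters below the median mean level were left out (0.0429 and 0.0374). With trend and robust variance PNP (0.0231) and SAMHD1 (0.0388) were called. SAMHD1 was also called without the first control vehicle array (-2.20, adjusted p = 0.0103) and without the second (-0.98, adjusted p = 0.0465), when a lone array is assumed to vary like the other groups. Fitted on the 4 control arrays alone, which leaves out the arrays that go against their label, 0 of 36 were called (0.0895% of all clusters).

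The folate enzymes were mixed. MTHFD2, the mitochondrial dehydrogenase and cyclohydrolase of folate, read 9.01 and 9.36 with vehicle and 10.03 and 10.87 with prednisolone in the control cells. Its difference there was the largest positive one of the 36 genes, at 1.26 (SE 0.30, adjusted p = 0.111). SLC19A1, the reduced folate carrier, lay at -1.17 (SE 0.30, adjusted p = 0.137). SHMT2, which makes glycine from serine in mitochondria, lay at 0.44 (SE 0.21), and its cytosolic counterpart SHMT1 at -0.09 (SE 0.29).

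**Figure D2:**
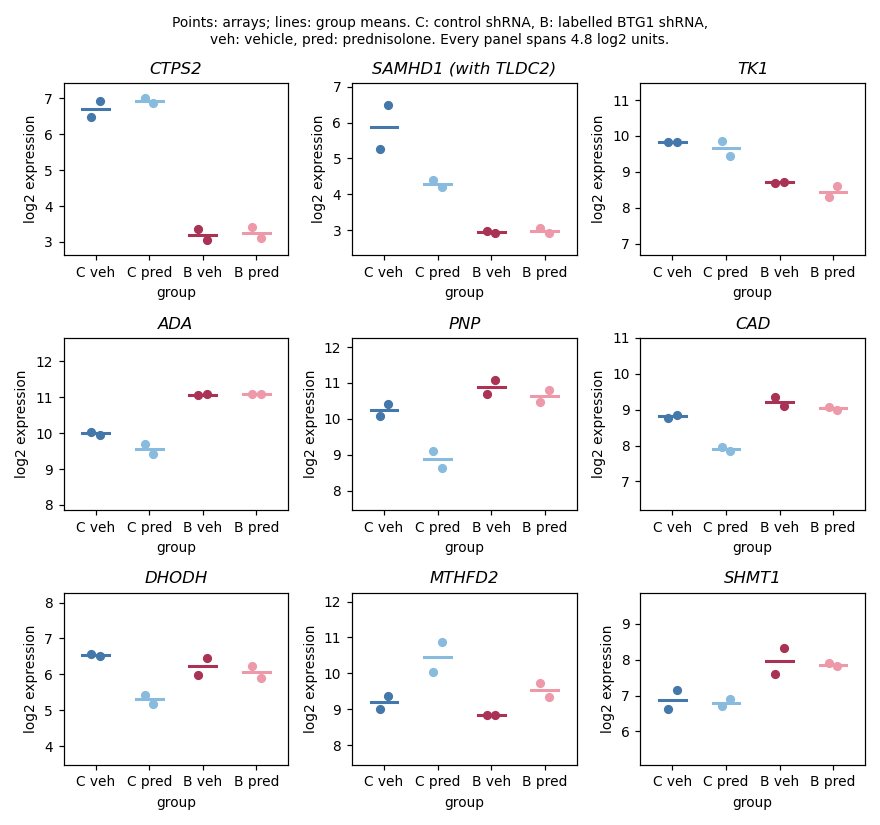
Log2 expression (vertical axis, 4.8 units in every panel) of 9 genes in the 4 groups (horizontal axis: C control shRNA, B labelled BTG1 shRNA, veh vehicle, pred prednisolone), with a point for each array and a line at each group mean. PNP, CAD and DHODH are lowest on the 2 control prednisolone arrays, and CTPS2 lies between 3.06 and 3.41 on all 4 arrays labelled BTG1 shRNA.

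On the arrays labelled BTG1 shRNA, prednisolone gave 0 calls among the 36 genes and 0 among all 17881 clusters with limma. At an unadjusted p below 0.05 there was 1 gene, MTHFD2, higher with prednisolone, against 0.699% of all clusters. MTHFD2 read 8.83 and 8.83 with vehicle and 9.74 and 9.34 with prednisolone, without overlap (0.71, SE 0.30, unadjusted p = 0.0473, adjusted p = 1). Higher values without overlap were found for 3224 of all 17881 clusters here. The next smallest p-values belonged to CTPS1, RRM2 and PAICS. CTPS1, which makes CTP from UTP, read 9.78 and 9.78 with vehicle and 8.99 and 9.50 with prednisolone (-0.53, SE 0.28). RRM2, the small subunit of ribonucleotide reductase in cycling cells, read 12.19 and 11.99 and then 11.68 and 11.62 (-0.44, SE 0.24). PAICS, a bifunctional purine enzyme, read 9.28 and 9.21 and then 8.65 and 8.96 (-0.44, SE 0.27). All of these had an adjusted p of 1. The 95% intervals for the genes that stood out in the control cells were -0.70 to 0.37 for DHODH, -0.85 to 0.34 for PNP, -0.59 to 0.23 for CAD and -0.80 to 0.87 for SAMHD1. SAMHD1 lay below the array's median in both groups here, so a fall could not have been measured well.

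The prednisolone effects of the 2 cell populations were tested against each other directly. Of 36 genes 0 passed for the difference of effects (0.134% of all clusters did), and 7 had an unadjusted p below 0.05, all with a more positive effect on the arrays labelled BTG1 shRNA (4.27% of all clusters differed in that direction). DHODH differed by 1.08 (SE 0.32, limma adjusted p = 0.408), PNP by 1.12 (SE 0.36, adjusted p = 0.457), SAMHD1 by 1.62 (SE 0.51, adjusted p = 0.437) and CAD by 0.73 (SE 0.25, adjusted p = 0.489). Without the first control vehicle array SAMHD1 differed by 2.23. SAMHD1 was dim in both groups labelled BTG1 shRNA (2.92 to 3.05), where a fall could not have been measured well. Its difference of effects therefore cannot show whether the responses differed. The median difference of effects was -0.16 for the 36 genes and 0.20 for all clusters; with quantile normalization these were 0.03 and 0.06, and with median centring -0.34 and 0.03. Both prednisolone effects had the same sign for 21 of the 36 genes (58.3%), in comparisons that share no array, against 31.9% of all clusters. Over all clusters the median effects lay on opposite sides of 0 (-0.16 in control cells, 0.03 on the others), with a Pearson correlation of -0.3 between the effects. Their share is therefore not a neutral background.

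**Figure D3:**
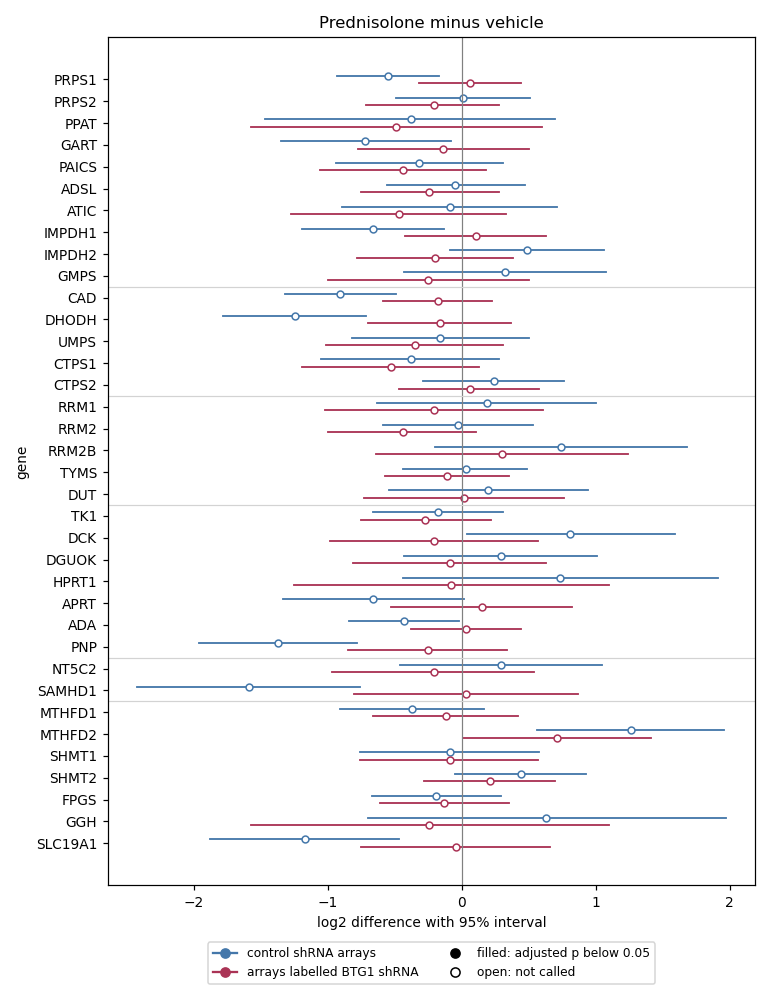
Prednisolone minus vehicle on the log2 scale (horizontal axis) with its 95% interval for each of the 36 genes (vertical axis), for the control shRNA arrays (blue) and the arrays labelled BTG1 shRNA (red); 2 arrays a group. Every point is open, since 0 of 36 genes passed the adjusted test in either population.

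Several genes from outside the list were set beside these. Of 54 other measured genes of nucleotide and folate metabolism, 2 (3.7%) fell with prednisolone in the control cells, against 105 of all 17881 clusters. GLDC, which feeds carbon units from glycine into folate, fell by 2.07 on the log2 scale (SE 0.25, adjusted p = 0.0105). DCTPP1, which hydrolyses dCTP, fell by 0.98 (SE 0.18, adjusted p = 0.0484). PFAS, a purine synthesis enzyme, lay at -0.86 (SE 0.19, adjusted p = 0.0881). The median of these 54 was -0.19. MYC, whose protein activates many nucleotide synthesis genes, read 9.05 and 9.36 with vehicle and 8.32 and 8.53 with prednisolone in the control cells (-0.78, SE 0.19, adjusted p = 0.121), and lay at -0.13 (SE 0.19) on the arrays labelled BTG1 shRNA. Of 24 S-phase genes 0 passed with prednisolone in the control cells (median -0.02), and their mean level was 8.60 to 9.01 over the 8 arrays. Of 11 genes of the amino acid response, a programme in which MTHFD2 is also induced, 4 rose with prednisolone in the control cells (median 0.57), against 166 of all 17881 clusters. Among the 4 were DDIT4 (2.46, SE 0.29) and SLC7A11 (2.99, SE 0.38). Of the 11 differences 3 were negative. ATF4, the transcription factor of this programme, lay at -0.55 (SE 0.20, limma adjusted p = 0.285). ASNS read 5.81 and 5.47 with vehicle and 5.51 and 5.52 with prednisolone, and ATF3 read 4.88 and 4.51, then 4.68 and 4.63. On the arrays labelled BTG1 shRNA 0 of these 11 passed (median 0.52). At an unadjusted limma p below 0.05 there were 6 higher, against 0.699% of all clusters. What part MYC or the amino acid response has in the values above was not tested.

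Between the arrays labelled BTG1 shRNA and the control arrays, the differences were larger and went both ways. Under vehicle 6 of 36 genes (16.7%) passed, against 14.7% of all clusters, with 2 higher (8.46% of all clusters) and 4 lower (6.21%); after median centring or quantile normalization the split was 1 and 4. This share is near the background. Under prednisolone 12 of 36 (33.3%) passed, against 17.5% of all clusters, with 5 higher (10% of all clusters) and 7 lower (7.51%). When clusters below the median mean level were left out, 10 of 34 passed against 25.5%. Over all clusters the median difference was -0.15 under vehicle and 0.04 under prednisolone, and -0.10 and -0.09 after median centring; for the 36 genes it was 0.26 and 0.15. The median of the 36 genes depended on the scaling, at 0.31 and 0.02 after median centring and 0.07 and 0.23 with quantile normalization. Called under both treatments were 5 genes, each in the same direction: CTPS2, SAMHD1 and TK1 lower, ADA and SHMT1 higher. The 2 comparisons share no array, and the sign was the same for 31 of 36 genes (86.1%) against 58.1% of all clusters. Of the 36 genes 34 lay at or above the median mean level, whereas all clusters include those below it. The 2 shares are therefore not like for like. The shRNA label and the T-cell and B-lineage marker levels given above separate the same arrays. Their parts in these differences cannot be told apart and were not tested.

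CTPS2, the second CTP synthase, showed the largest difference. The control arrays gave 6.48 and 6.93 with vehicle and 7.01 and 6.87 with prednisolone. The arrays labelled BTG1 shRNA gave 3.35 and 3.06 with vehicle and 3.41 and 3.11 with prednisolone, at or below the 19.9th percentile of each array. The difference was -3.50 (SE 0.23, limma adjusted p = 6.31e-05) with vehicle present and -3.68 (SE 0.23, adjusted p = 4.29e-05) with prednisolone. Both groups of arrays labelled BTG1 shRNA were dim for this gene, below the median of all clusters, so how far it stands above background is not known and the size of the fold is uncertain. Its paralogue CTPS1 stood at 8.95 and 9.52 on the control vehicle arrays, and at 8.60 and 9.11 on the control prednisolone arrays, and differed by 0.54 (SE 0.28, adjusted p = 0.252) and 0.39 (SE 0.28, adjusted p = 0.512), values that did not pass. The 250 bases before the RefSeq start of CTPS2 (GRCh38.p14, chrX:16712670-16712919, minus strand) are shown because this gene separated the populations most among the 36.

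CTPS2: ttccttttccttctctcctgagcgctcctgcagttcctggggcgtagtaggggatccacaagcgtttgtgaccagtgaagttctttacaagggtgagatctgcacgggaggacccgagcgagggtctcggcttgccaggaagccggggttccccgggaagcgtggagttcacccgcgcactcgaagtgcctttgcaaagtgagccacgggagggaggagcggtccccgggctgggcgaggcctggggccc

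This window holds 0 matches to the motifs searched on both strands: the E-box CACGTG, the E2F sequences TTTGGCGC, TTTCCCGC and TTTCGCGC, a palindrome like the glucocorticoid response element and the ATF4-like TGATGNAA. Of 32 genes of the list searched in RefSeq windows (MTHFD1L included), 6 held the E-box (18.8%), against 6.34% of 35116 promoter windows of the same length. RRM2B and GGH were left out of the search by a filter on their chromosome, which was not applied to the 35116. Each gene searched gave 1 window, the first listed, whereas the 35116 are all listed windows. Bases after the start were not searched, and ADSL, IMPDH2 and SHMT2 had no window. The list's windows were also richer in G and C (median 63.8% against 58.0%). The E2F sequences lay in 2 of 32 (PRPS2 and TYMS) against 2.32%, the ATF4-like sequence in 1 (MTHFD1L) against 3.14%, and the glucocorticoid-response-like sequence in 0 against 0.327%. A match is a description of letters, not of a bound site. The 5 measured genes with an E-box follow with the flanking bases and the E-box in capitals, in the direction of transcription.

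PPAT: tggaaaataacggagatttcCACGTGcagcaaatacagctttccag
ATIC: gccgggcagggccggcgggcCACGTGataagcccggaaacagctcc
DHODH: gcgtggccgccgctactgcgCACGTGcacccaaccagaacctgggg
DCK: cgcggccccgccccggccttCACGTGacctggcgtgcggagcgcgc
MTHFD1: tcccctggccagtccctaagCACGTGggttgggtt

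These lie at chr4:56435772-56435817 (minus strand, PPAT), chr2:215311993-215312038 (ATIC), chr16:72008565-72008610 (DHODH), chr4:70993513-70993558 (DCK) and chr14:64388318-64388352 (MTHFD1), the last 4 on the plus strand, in GRCh38.p14. The 5 genes did not move one way with prednisolone in the control cells: DHODH lay at -1.24, PPAT at -0.38, MTHFD1 at -0.37, ATIC at -0.09 and DCK at 0.81, and 0 of them passed.

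Of the 7 salvage genes 2 (28.6%) were called under vehicle and 4 (57.1%) under prednisolone, and of the 2 removal genes 1 under each. Over all clusters 14.7% were called under vehicle and 17.5% under prednisolone. SAMHD1 read 2.97 and 2.93 with vehicle and 3.05 and 2.92 with prednisolone on the arrays labelled BTG1 shRNA, at or below the 13th percentile of each array. Compared with the control arrays this was a difference of -2.94 (SE 0.36, limma adjusted p = 0.00125) under vehicle. Under prednisolone, where both sides were dim, it was -1.31 (SE 0.36, limma adjusted p = 0.0426). The arrays did not overlap either time, as in 6128 and 3846 of all 17881 clusters in the lower direction. The prednisolone call was lost when a prednisolone array was left out, whichever of the 4 (0.134 to 0.165), without either vehicle array labelled BTG1 shRNA (0.0725 each), with quantile normalization (0.0864) and with median centring (0.0817). TK1, the cytosolic thymidine kinase, stood at 9.84 and 9.84 on the control vehicle arrays, and at 9.87 and 9.45 on the control prednisolone arrays. Its values were 8.68 and 8.73, then 8.29 and 8.60, on the arrays labelled BTG1 shRNA, below every control array. TK1 thus differed by -1.13 under vehicle (2.19-fold, SE 0.21, limma adjusted p = 0.00926) and by -1.22 under prednisolone (SE 0.21, adjusted p = 0.00553). The vehicle call ended without the first or the second vehicle array labelled BTG1 shRNA (adjusted p = 0.0715 and 0.0685).

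ADA, which deaminates adenosine and deoxyadenosine, was higher on the arrays labelled BTG1 shRNA. Levels on the control arrays were 10.03 and 9.96 with vehicle and 9.71 and 9.42 with prednisolone, against 11.05 and 11.08, then 11.10 and 11.09. The difference was 1.07 (2.10-fold, SE 0.18, limma adjusted p = 0.00554) with vehicle present and 1.53 (SE 0.18, adjusted p = 0.000825) with prednisolone; the former missed the threshold without the second vehicle array labelled BTG1 shRNA (adjusted p = 0.0594). PNP, which acts after ADA on the purine nucleosides, read 10.70 and 11.08 with vehicle and 10.46 and 10.81 with prednisolone on these arrays. Its difference was 0.64 (SE 0.25, adjusted p = 0.151) with vehicle present and 1.76 (SE 0.25, adjusted p = 0.00254) with prednisolone. The latter uses the same low control prednisolone arrays as the prednisolone effect in control cells, so the values are not independent. DCK, the kinase of deoxycytidine, read 7.90 and 8.39 with vehicle and 8.48 and 9.44 with prednisolone in the control cells, and 8.11 and 7.84, then 7.88 and 7.67, on the others. It was lower under prednisolone by -1.19 (SE 0.33, adjusted p = 0.0467), a call lost with the second control prednisolone array left out (-0.71, adjusted p = 0.254), either prednisolone array labelled BTG1 shRNA (0.13 and 0.192) or either vehicle array so labelled (0.0748 each). It was also lost with median centring (0.0778) and in a fit on the groups compared (0.061). APRT, HPRT1 and DGUOK were not called in any of the comparisons, nor was the nucleotidase NT5C2, which lay at -0.37 and -0.87 (SE 0.32 each).

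**Figure D4:**
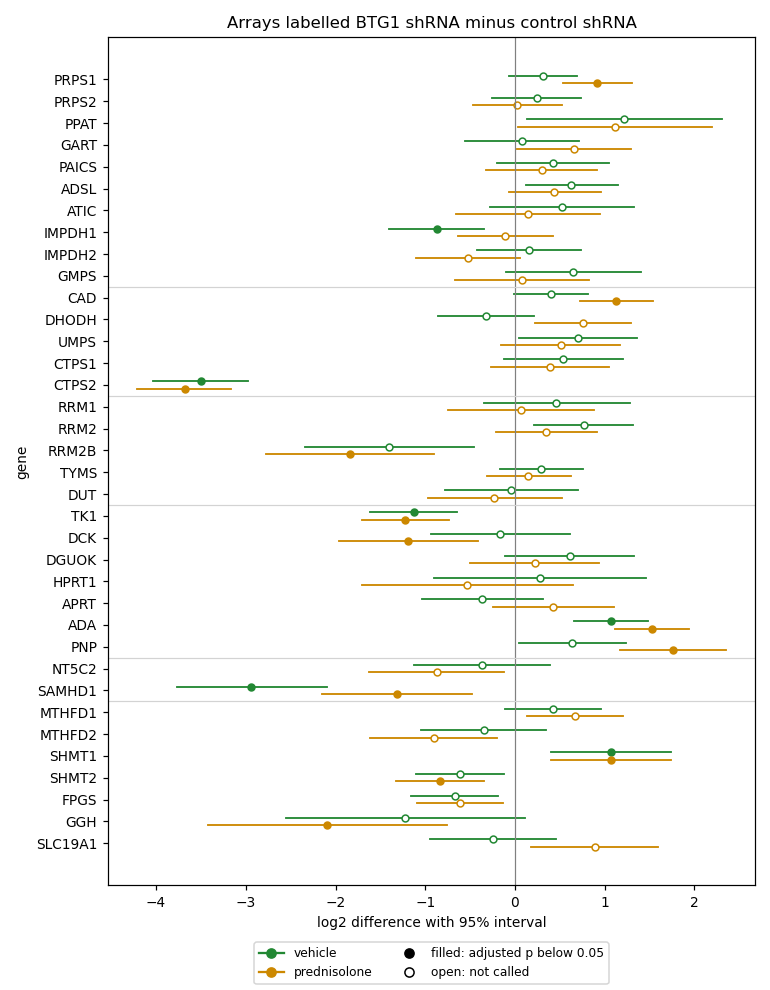
Arrays labelled BTG1 shRNA minus control shRNA arrays on the log2 scale (horizontal axis) with its 95% interval for each of the 36 genes (vertical axis), under vehicle (green) and prednisolone (orange); filled points passed the adjusted test. CTPS2 lies at -3.50 and -3.68, and the filled points lie on both sides of 0.

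Of the 10 purine synthesis genes, 1 (10%) was called under each treatment, against 14.7% of all clusters under vehicle and 17.5% under prednisolone. PRPS1, which makes phosphoribosyl pyrophosphate, gave 10.02 and 10.02 in control cells with vehicle, 9.51 and 9.43 with prednisolone, and 10.35 and 10.31, then 10.32 and 10.46, on the arrays labelled BTG1 shRNA. It was higher there under prednisolone by 0.92 (SE 0.16, limma adjusted p = 0.00672), and by 0.31 (SE 0.16, adjusted p = 0.255) under vehicle. That call was lost when the second array of either prednisolone group was left out (limma adjusted p = 0.0633 for the control group and 0.0583 for the other). Its paralogue PRPS2 read 7.79 and 8.08, 7.95 and 7.93, 8.14 and 8.21, and 8.20 and 7.73 in the same order of groups, with differences of 0.25 (SE 0.21) and 0.02 (SE 0.21) that did not pass. IMPDH1 and IMPDH2 catalyse the first step from inosine to guanine nucleotides. IMPDH1 read 7.58 and 7.23, 6.77 and 6.72, 6.51 and 6.56, and 6.90 and 6.38. It was lower under vehicle by -0.87 (1.83-fold, SE 0.23, adjusted p = 0.0401), which was lost without the first control vehicle array (-0.70, adjusted p = 0.143) or either vehicle array labelled BTG1 shRNA (adjusted p = 0.188 and 0.18) or either control prednisolone array (0.0708 each). It was also lost with quantile normalization (0.0527), trend and robust variance (0.0632) and a fit on the groups compared (0.0836). Under prednisolone IMPDH1 lay at -0.11 (SE 0.23). IMPDH2 read 9.84 and 10.22, 10.29 and 10.74, 10.29 and 10.09, and 9.79 and 10.20, and did not pass in any comparison. PPAT, the enzyme that commits to purine synthesis, lay at 1.22 (SE 0.47, limma adjusted p = 0.139) and 1.12 (SE 0.47, adjusted p = 0.17) without overlap of the arrays. Among all 17881 clusters, 4388 under vehicle and 5074 under prednisolone were likewise higher without overlap. The other purine synthesis genes GART, PAICS, ADSL, ATIC and GMPS did not pass in any comparison, with differences between the populations of 0.08 to 0.66.

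Among the 5 pyrimidine synthesis genes 1 (20%) was called under vehicle and 2 (40%) under prednisolone, against 14.7% and 17.5% of all clusters. CAD read 9.35 and 9.09 with vehicle and 9.08 and 9.0 with prednisolone on the arrays labelled BTG1 shRNA. It was higher than in the control cells by 0.40 (SE 0.18, adjusted p = 0.185) with vehicle present and 1.13 (SE 0.18, limma adjusted p = 0.00364) with prednisolone, again against the low control prednisolone arrays. DHODH read 5.98 and 6.46, then 6.23 and 5.89, and lay at -0.32 (SE 0.23, adjusted p = 0.354) and 0.76 (SE 0.23, adjusted p = 0.0614). UMPS, which completes the pyrimidine UMP, lay at 0.70 and 0.51 (SE 0.28 each) and did not pass.

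Among the 5 genes of deoxynucleotide supply 0 were called under vehicle and 1 (20%) under prednisolone, against 14.7% and 17.5% of all clusters. RRM2 stood at 11.29 and 11.36 on the control vehicle arrays, and at 10.97 and 11.63 with prednisolone, and differed by 0.77 (SE 0.24, adjusted p = 0.0766) with vehicle present and 0.35 (SE 0.24, adjusted p = 0.464) with prednisolone. The vehicle value passed with trend and robust variance (limma adjusted p = 0.0483) and without either control prednisolone array (0.0455 each). RRM2B, the p53-inducible small subunit, read 6.0 and 7.12, 7.17 and 7.43, 4.92 and 5.40, and 5.82 and 5.10 in the 4 groups. Under prednisolone the difference was -1.84 (SE 0.40, limma adjusted p = 0.0173), and under vehicle -1.40 (SE 0.40, adjusted p = 0.0586). The vehicle value ranged from -1.96 to -0.84 when an array was left out. It passed without the first control vehicle array (-1.96, adjusted p = 0.013), without clusters below the median mean level (0.0313) and with trend and robust variance (0.0345). The call under prednisolone was lost without the first or second control prednisolone array (adjusted p = 0.0537 and 0.106) or the second prednisolone array labelled BTG1 shRNA (0.107). RRM1, TYMS and DUT did not pass in any comparison, with differences between the populations of -0.23 to 0.46. Of 24 S-phase genes 2 (8.33%) passed under vehicle and 3 (12.5%) under prednisolone, against 14.7% and 17.5% of all clusters.

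The folate genes held the remaining calls. Under vehicle 1 of 7 measured (14.3%) was called, against 14.7% of all clusters, and under prednisolone 3 (42.9%), against 17.5%. SHMT1 stood at 6.62 and 7.15 on the control vehicle arrays, and at 6.70 and 6.89 with prednisolone, against 7.59 and 8.32, then 7.90 and 7.82. It was higher by 1.07 (2.10-fold, SE 0.29) under both treatments, with limma adjusted p = 0.0453 and 0.0402. Leaving out an array ended the vehicle call in 6 of 8 cases (adjusted p = 0.0717 to 0.29), the exceptions being the second control vehicle array and the first vehicle array labelled BTG1 shRNA. The prednisolone call was lost without each of the 4 prednisolone arrays (0.128 to 0.172). Median centring ended both (0.0914 and 0.146), and under vehicle quantile normalization (0.0613) and a fit on the groups compared (0.117) did too. SHMT2 read 10.49 and 10.76, 11.17 and 10.97, 9.82 and 10.22, and 10.17 and 10.29, and was lower under prednisolone by -0.84 (1.79-fold, SE 0.21, adjusted p = 0.0301), which was also lost without any 1 of the 4 prednisolone arrays (0.0962 to 0.16). Under vehicle SHMT2 lay at -0.61 (SE 0.21, adjusted p = 0.102) and passed with quantile normalization (-0.81, adjusted p = 0.0263). GGH, the hydrolase that removes glutamates from folates, read 7.26 and 8.62, 8.02 and 9.12, 6.14 and 7.29, and 6.28 and 6.67. Its arrays were far apart within groups, and it was lower under prednisolone by -2.09 (SE 0.57, adjusted p = 0.0432), a call lost with the second control prednisolone array left out (-1.54, adjusted p = 0.252) or either prednisolone array labelled BTG1 shRNA (0.197 and 0.11), and with median centring (0.0914). MTHFD1, the cytosolic folate enzyme, had group means of 9.33, 8.96, 9.75 and 9.63 in that order, with differences of 0.42 (SE 0.23) and 0.67 (SE 0.23) that did not pass. FPGS lay at -0.67 (SE 0.21, limma adjusted p = 0.0732) and -0.61 (SE 0.21, adjusted p = 0.0912) without overlap. Lower values without overlap were found for 6128 of all 17881 clusters under vehicle and 3846 under prednisolone. MTHFD2 lay at -0.35 and -0.90 (SE 0.30 each), and SLC19A1 at -0.24 and 0.89 (SE 0.30 each), none of which passed.

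Of the 54 other nucleotide and folate genes, 6 (11.1%) passed under vehicle (4 higher, 2 lower), against 14.7% of all clusters. Under prednisolone 12 (22.2%) passed (10 higher, 2 lower), against 17.5%. NUDT1, which cleans oxidised purine nucleotides from the pool, was higher by 1.33 (SE 0.17, adjusted p = 0.00153) and 1.46 (SE 0.17, adjusted p = 0.000857). GUK1, the guanylate kinase, was higher by 1.28 (SE 0.22) and 1.83 (SE 0.22). GLDC was lower under vehicle by -1.80 (SE 0.25, limma adjusted p = 0.00243). Under prednisolone GLDC lay at 0.41 (SE 0.25, adjusted p = 0.391) and did not pass. MYC did not pass under vehicle (0.28, SE 0.19) and was higher under prednisolone by 0.93 (SE 0.19, adjusted p = 0.0137).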

How the data were processed

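The log2 expression values were used as deposited by the authors, after restoring decimal points that most of them had lost. Per the submitters' processing notes the tools were RMA and Partek, with no version stated, and per the labels core meta-probe sets on hg18 were used. A point was placed behind digit 1, or behind digit 2 where a value began with 1 (2831 of 143048 values); 153 values still had theirs, from 2.47 to 12.25. This differs from the plain log2 table assumed in the design, but the planned tests apply. Symbols came from the platform annotation. limma 3.58.1 in R 4.3.3 (lmFit, eBayes; 4 residual and 3.51 prior degrees of freedom) fitted 4 group means to all 17881 clusters on 8 arrays, with Benjamini-Hochberg adjustment in each of 5 comparisons. "Passed", "called", "rose" and "fell" mean an adjusted p below 0.05. "Dim" means below the median of all clusters on both arrays of a group.

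Values per array are given for the 4 genes with the smallest p in each prednisolone comparison and in the difference of effects, the 8 largest called genes of each shRNA comparison, and paralogue pairs. From each other list the 4 smallest p-values could be named. SLC19A1, PPAT, FPGS, ASNS, ATF3 and the E-box genes were added after their values were seen. The members and lists were chosen with earlier results of these data known. Scripts were tested on simulated data. Promoter sequences are from RefSeq, GRCh38.p14. No array was left out. Alternatives are listed with their effects in the closing section.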

Additional observations from a re-analysis of the deposited data

How the results depend on the processing

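Alternatives were quantile normalization, median centring, leaving out clusters below the median mean level, single-symbol clusters, the second highest cluster, a fit on the groups compared, a replicate block, another reading of values starting with 1 (66 values changed), trend and robust variance, and leaving out each array; the fit on the groups compared applies to 4 comparisons, since the difference of effects uses all groups. For prednisolone in control cells the count of 0 became 2 with quantile normalization (1.62% of all clusters called), without clusters below the median mean level (2.42%) and with trend and robust variance (1.64%), and 0 to 1 without an array. For the arrays labelled BTG1 shRNA it was 0 throughout. For the difference of effects it was 0 to 1 without an array. Between the populations under vehicle, 6 became 2 to 7 without an array (2 without the second vehicle array labelled BTG1 shRNA, with 7.21% of all clusters), and under prednisolone 12 became 6 to 13 (6 without the second control prednisolone array, 6 without the second prednisolone array labelled BTG1 shRNA and 7 without the first so labelled, with 9.76%, 11.6% and 10.8% of all clusters). The cause of these changes was not tested. CTPS2 under both treatments, SAMHD1 under vehicle, and ADA, PNP, CAD and TK1 under prednisolone stayed called in every alternative that kept their cluster.

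The labels tie the replicate numbers to no shared culture or day. The differences between replicates correlated between groups at 0.56, 0.43, 0.59, 0.42 and 0.26 for 5 pairs of groups and at 0.01 for control prednisolone with BTG1 shRNA vehicle, so with 2 numbers the arrays were not treated as paired, although some deviate together. With the replicate block, 4 genes were called for prednisolone in control cells (CAD, adjusted p = 0.0275 with limma, DHODH, 0.0307, PNP, 0.0283, and SLC19A1), beside 4.22% of all clusters. Between the populations 13 were called under vehicle (25.5% of all clusters), among them RRM2 (0.0464) and RRM2B (0.0368), and 16 under prednisolone (24.2%). For the other comparisons the block left 0 called.

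Single genes were refitted only where their values per array are given or they form a paralogue pair. Among these the sign turned for 26 values, each of a gene called in neither fit. With quantile normalization, these were PRPS2 (-0.10) for prednisolone in control cells, CTPS2 (-0.03) and SHMT1 (0.01) for prednisolone on the arrays labelled BTG1 shRNA, and IMPDH2 (-0.01) between the populations under vehicle. With median centring they were RRM2 (0.10) and SHMT1 (0.03) for prednisolone in control cells and PRPS2 (-0.10) between the populations under prednisolone. RRM2 by its second cluster, shared with EFHC2, gave 0.02 for prednisolone on the arrays labelled BTG1 shRNA and -0.23 between the populations under vehicle. Without an array, the ranges for prednisolone in control cells were PRPS2 -0.14 to 0.16, RRM2 -0.36 to 0.30 and SHMT1 -0.36 to 0.17. On the arrays labelled BTG1 shRNA they were CTPS2 -0.10 to 0.21, SHMT1 -0.46 to 0.27, MTHFD1 -0.37 to 0.13, IMPDH1 -0.15 to 0.36, IMPDH2 -0.40 to 0.00, RRM2B -0.06 to 0.66, PRPS1 -0.01 to 0.13 and PRPS2 -0.45 to 0.02. Between the populations they were IMPDH2 -0.03 to 0.35 under vehicle, and PRPS2 -0.21 to 0.26 and IMPDH1 -0.36 to 0.15 under prednisolone. Genes dim on one side have differences of uncertain size.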
